A study of Homo sapiens with 8 samples.

Results

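The 10 genes described here act in glucose uptake and glycolysis: SLC2A1, HK2, PFKFB3, PFKFB4, ALDOC, PGK1, ENO2, LDHA, PDK1 and TXNIP. They were listed by symbol with earlier results of these data known. Each was read from the 1 probe set that the platform annotation pairs with that gene alone. All 10 were measured, among 18417 genes tested. RNA came from HCC1937, a human breast cancer line labelled BRCA1 deficient with a truncated BRCA1, and from HCC1937+BRCA1, which carries exogenous wild-type BRCA1. Each line was measured with COH29, a ribonucleotide reductase inhibitor, at 10 µM for 24 h, and as a control. The groups were therefore HCC1937 COH29, HCC1937 control, HCC1937+BRCA1 COH29 and HCC1937+BRCA1 control, with 2 Affymetrix arrays each and 8 arrays in all. All groups shared the HCC1937 parent and grew in RPMI medium with serum. The labels give the controls no vehicle and no time of their own, and do not say whether HCC1937+BRCA1 is 1 clone or a pool. Separate cultures for the 2 arrays of a group are not stated either, so p-values measure the spread between these arrays, which may be technical.

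Glucose enters most cultured cells through the transporter GLUT1, the product of SLC2A1, and is trapped by hexokinases as glucose-6-phosphate. Phosphofructokinase then commits it to glycolysis under the control of fructose-2,6-bisphosphate, which the bifunctional PFKFB enzymes make and remove. Aldolase, phosphoglycerate kinase and enolase carry the chain towards pyruvate, lactate dehydrogenase turns pyruvate into lactate, and pyruvate dehydrogenase kinases hold it back from the mitochondria. TXNIP works in the other direction, since its protein restrains glucose uptake. Except for TXNIP, these are textbook targets of the hypoxia-inducible factors, while TXNIP is a classical target of the glucose-sensing factors MondoA and ChREBP.

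In HCC1937 all 10 genes were called higher with COH29 than in the control, and in HCC1937+BRCA1 9 of the 10 were called higher, TXNIP being the exception. A gene was called when its Benjamini-Hochberg adjusted p over all genes tested, from limma's moderated test, was under 0.05. Over all genes, 22.7% were called in HCC1937 (10.2% higher and 12.5% lower with COH29), and 33.6% in HCC1937+BRCA1 (13.6% higher and 20.1% lower). The 4179 calls in HCC1937 became 2642 without HCC1937 COH29 replicate 1, 2392 without HCC1937 control replicate 1 and 2336 without HCC1937 control replicate 2. The median log2 change of the 10 genes was 0.94 in HCC1937 and 1.03 in HCC1937+BRCA1, against 0.04 over all genes in each line. Since the 10 genes were chosen with earlier results known, these counts and medians describe them and are no independent test. In cell populations, a change per cell and a change in the share of cells of a kind cannot be told apart. The plot of levels by array shows each value.

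**Figure D1:**
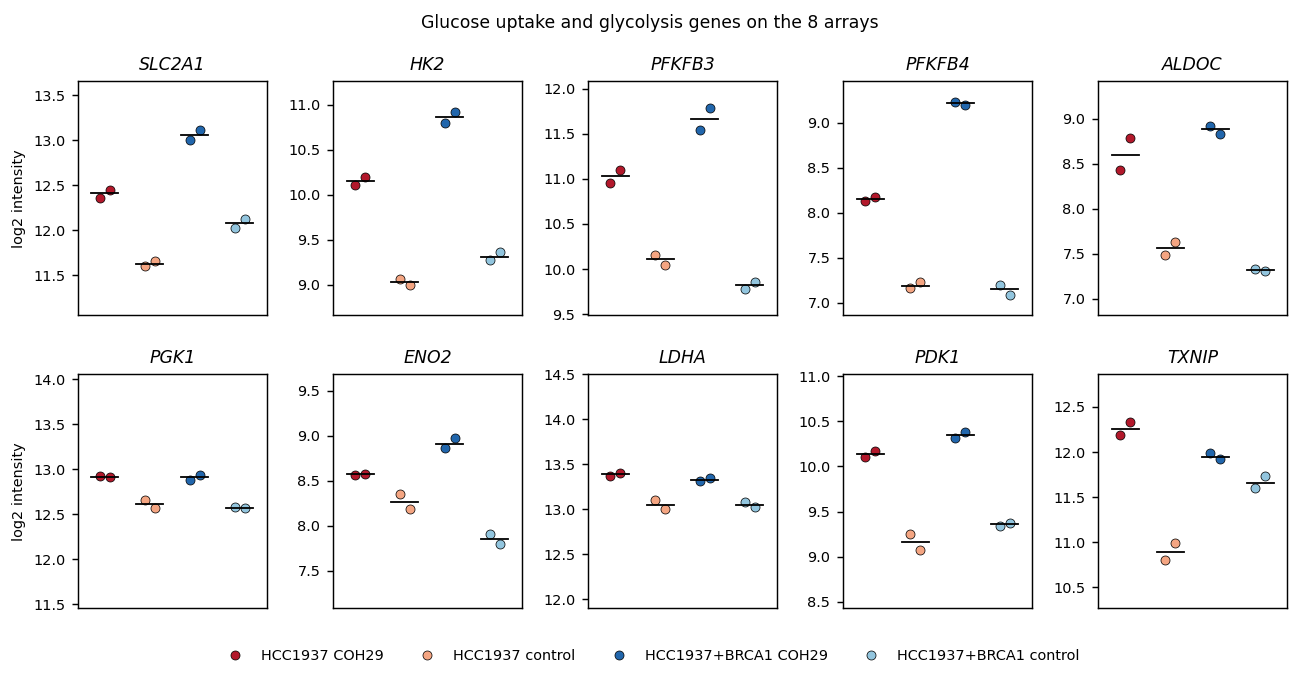
Level of each of the 10 genes (log2 intensity, vertical axis, every panel covering the same height) on each of the 8 arrays; points are arrays, bars are means of 2 arrays, and colours mark the groups. In every panel the COH29 arrays of a line lie above the control arrays of that line; the vertical gap is small for PGK1 and LDHA in both lines, for ENO2 in HCC1937 and for TXNIP in HCC1937+BRCA1.

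Levels are log2 intensities, so a difference of 1 is a doubling of intensity, and the level of a probe set cannot be set against that of another gene. Errors of log2 changes are limma's moderated standard errors (SE), with 2 arrays per group. As a check of the labelled cell type, the epithelial markers EPCAM, CDH1, KRT8 and KRT18 lay between 12.03 and 13.33 over the arrays and KRT19 between 7.61 and 8.62. Fibroblast markers lay between 3.19 for LUM and 8.16 for COL1A1, and leukocyte markers between 3.73 for PTPRC and 10.74 for CD14. These are ranges of separate probe sets, which were not ranked against each other. The lowest and highest values on the arrays were 1.78 and 14.65. The mean level of 3 endothelial markers was 6.92 and 6.94 with COH29 against 7.89 and 7.97 in the control of HCC1937, and 6.44 and 6.54 with COH29 against 7.08 and 7.19 in the control of HCC1937+BRCA1. The mean of 3 leukocyte markers was 6.38 and 6.42 with COH29 against 6.61 and 6.71 in the control of HCC1937, and 5.42 and 5.34 against 5.21 and 5.37 in HCC1937+BRCA1. The markers of a set did not all move together. With COH29 in HCC1937, PECAM1 averaged 7.35 against 9.30 in the control and CDH5 7.48 against 8.75, but VWF 5.98 against 5.73. There CD14 averaged 9.48 against 10.61, CD3E 5.50 against 5.19 and PTPRC 4.21 against 4.18. In HCC1937+BRCA1 PECAM1 averaged 6.63 against 8.11, CDH5 6.91 against 7.41 and VWF 5.93 against 5.88. The part of these markers in the results was not tested. BRCA1 itself read 10.45 and 10.64 in HCC1937 controls and 10.50 and 10.43 in HCC1937+BRCA1 controls. The difference was 0.08 ± 0.10 (SE, limma adjusted p = 0.62), so its level does not separate the controls of the lines. With COH29 it read 10.40 and 10.46 in HCC1937 and 10.25 and 10.07 in HCC1937+BRCA1, a difference of 0.27 ± 0.10 (0.0722) without overlap. The COH29 effect on BRCA1 was -0.12 ± 0.10 in HCC1937 (0.444) and -0.30 ± 0.10 in HCC1937+BRCA1 (0.0441). When each of the 8 arrays was left out in turn, this last call was lost for 5 of them.

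SLC2A1, which encodes the glucose transporter GLUT1, read 12.36 and 12.45 on the HCC1937 COH29 arrays, against 11.60 and 11.66 on the HCC1937 control arrays. On the HCC1937+BRCA1 arrays it read 13.00 and 13.11 with COH29, against 12.03 and 12.13 in the control. The COH29 arrays lay above the controls of the same line without overlap. The change was 0.78 ± 0.09 on the log2 scale in HCC1937 (1.71-fold, limma adjusted p = 0.000408) and 0.97 ± 0.09 in HCC1937+BRCA1 (1.96-fold, adjusted p = 6.17e-05). Both calls held when any 1 of the 8 arrays was left out. Every step in the order of the 4 group means passed the test, with HCC1937+BRCA1 COH29 the highest at 13.06 and HCC1937 control the lowest at 11.63.

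TXNIP, an alpha-arrestin that limits glucose uptake and binds thioredoxin, had a different pattern. It read 12.19 and 12.33 on the HCC1937 COH29 arrays, against 10.80 and 10.99 on the HCC1937 control arrays. The HCC1937+BRCA1 arrays read 11.99 and 11.92 with COH29, against 11.60 and 11.73 in the control. The control arrays of HCC1937 were lower than all the others. TXNIP rose by 1.37 ± 0.10 in HCC1937 (2.58-fold, limma adjusted p = 5.82e-05), and that call held without any 1 array. In HCC1937+BRCA1 the change was 0.29 ± 0.10 (1.22-fold, adjusted p = 0.051), just over the threshold. Both COH29 arrays there still lay above both controls. The adjusted p was 0.0272 when dim genes were left out and 0.0238 with the arrays shifted to one median. With cyclic loess it was 0.0215 and with a trended, robust variance prior 0.00487. In the other 13 of 17 alternatives TXNIP was not called there, and its change was 0.22 to 0.36 when 1 array was left out.

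HK2 encodes hexokinase 2, which phosphorylates glucose in the first step of glycolysis. It read 10.11 and 10.20 with COH29 in HCC1937, against 9.06 and 9.00 in the control. In HCC1937+BRCA1 the COH29 arrays read 10.79 and 10.92, against 9.27 and 9.36 for the controls. The 4 groups were separate from each other, and the COH29 arrays were the higher ones in each line. HK2 rose by 1.12 ± 0.09 in HCC1937 (2.18-fold, limma adjusted p = 8.02e-05) and by 1.54 ± 0.09 in HCC1937+BRCA1 (2.91-fold, adjusted p = 7.9e-06). Neither call was lost without any 1 array.

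PFKFB3 encodes the isoform of the PFKFB family with the highest kinase over phosphatase activity, which favours fructose-2,6-bisphosphate. It read 10.96 and 11.10 with COH29 in HCC1937, against 10.16 and 10.05 in the control. In HCC1937+BRCA1 it read 11.54 and 11.79 with COH29, against 9.78 and 9.86 in the control. The HCC1937+BRCA1 line had both the highest and the lowest arrays. PFKFB3 rose by 0.92 ± 0.11 in HCC1937 (1.89-fold, limma adjusted p = 0.000467) and by 1.84 ± 0.11 in HCC1937+BRCA1 (3.59-fold, adjusted p = 8.37e-06).

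PFKFB4, a bifunctional isoform best known from testis and from tumour cells, read 8.13 and 8.17 with COH29 in HCC1937, against 7.16 and 7.23 in the control. The HCC1937+BRCA1 arrays gave 9.23 and 9.20 with COH29, against 7.20 and 7.09 in the control. The controls of the lines overlapped, and the COH29 arrays of HCC1937+BRCA1 stood more than 1 log2 unit above those of HCC1937. The rise was 0.96 ± 0.08 in HCC1937 (1.94-fold, limma adjusted p = 0.000123) and 2.07 ± 0.08 in HCC1937+BRCA1 (4.2-fold, adjusted p = 1.34e-06). PFKFB4 had the largest change of the 10 genes in HCC1937+BRCA1. No call of PFKFB3 or PFKFB4 within a line was lost without any 1 array.

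ALDOC encodes aldolase C, the aldolase of brain, which splits fructose-1,6-bisphosphate. It read 8.43 and 8.78 with COH29 in HCC1937, against 7.49 and 7.63 in the control. In HCC1937+BRCA1 it read 8.92 and 8.83 with COH29, against 7.33 and 7.31 in the control. All COH29 arrays lay above all control arrays, and the HCC1937 COH29 arrays were the farthest apart within a group. ALDOC rose by 1.04 ± 0.12 in HCC1937 (2.06-fold, limma adjusted p = 0.000443) and by 1.55 ± 0.12 in HCC1937+BRCA1 (2.93-fold, adjusted p = 2.82e-05), and both calls held without any 1 array.

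PGK1 encodes phosphoglycerate kinase, which makes ATP from 1,3-bisphosphoglycerate. It read 12.92 and 12.91 with COH29 in HCC1937, against 12.66 and 12.57 in the control. The level in HCC1937+BRCA1 was 12.88 and 12.94 with COH29, against 12.58 and 12.57 in the control. The lines overlapped both with and without COH29, and the COH29 arrays lay above the controls. The change was 0.30 ± 0.08 in HCC1937 (1.23-fold, limma adjusted p = 0.0265) and 0.34 ± 0.08 in HCC1937+BRCA1 (1.26-fold, adjusted p = 0.0107). The call in HCC1937 was lost without any 1 of its 4 arrays (adjusted p 0.0668 to 0.164) and in a fit of those 4 arrays alone (0.0555), and that in HCC1937+BRCA1 without COH29 replicate 2 (0.0595) or control replicate 2 (0.0501).

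ENO2 encodes gamma enolase, the enolase of neurons, and its response was the most unequal of the later enzymes. It read 8.57 and 8.58 with COH29 in HCC1937, against 8.35 and 8.19 in the control. In HCC1937+BRCA1 it read 8.86 and 8.97 with COH29, against 7.91 and 7.80 in the control. As with PFKFB3, the HCC1937+BRCA1 line held both the highest and the lowest arrays. The change was 0.31 ± 0.09 in HCC1937 (1.24-fold, limma adjusted p = 0.0412) and 1.06 ± 0.09 in HCC1937+BRCA1 (2.09-fold, adjusted p = 4.99e-05). The call in HCC1937 was lost when any 1 of the 8 arrays was left out (adjusted p 0.0503 to 0.249), without moderation of the variances (0.0774) and in a fit of the 4 HCC1937 arrays alone (0.0643), while that in HCC1937+BRCA1 held each time.

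LDHA encodes the A subunit of lactate dehydrogenase, which turns pyruvate into lactate. It read 13.37 and 13.40 with COH29 in HCC1937, against 13.10 and 13.00 in the control. HCC1937+BRCA1 arrays read 13.31 and 13.35 with COH29, against 13.08 and 13.02 in the control. The COH29 arrays lay above the controls by about the same small amount in both lines. The change was 0.33 ± 0.08 in HCC1937 (1.26-fold, limma adjusted p = 0.0184) and 0.28 ± 0.08 in HCC1937+BRCA1 (1.21-fold, adjusted p = 0.0289). Each call was lost without any 1 of the 4 arrays of its own line, with adjusted p 0.0533 to 0.133 in HCC1937 and 0.0679 to 0.119 in HCC1937+BRCA1, and the call in HCC1937+BRCA1 also in a fit of its 4 arrays alone (0.0559). PGK1 and LDHA read near the top of the range of the arrays, and whether their probes were near saturation was not analysed here.

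PDK1 encodes pyruvate dehydrogenase kinase 1, which inactivates pyruvate dehydrogenase. It read 10.10 and 10.17 with COH29 in HCC1937, against 9.25 and 9.07 in the control. In HCC1937+BRCA1 it read 10.32 and 10.38 with COH29, against 9.34 and 9.37 in the control. The COH29 arrays were nearly 1 log2 unit above the controls in both lines. PDK1 rose by 0.97 ± 0.09 in HCC1937 (1.96-fold, limma adjusted p = 0.000156) and by 0.99 ± 0.09 in HCC1937+BRCA1 (1.99-fold, adjusted p = 6.65e-05), and both calls held without any 1 array.

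**Figure D2:**
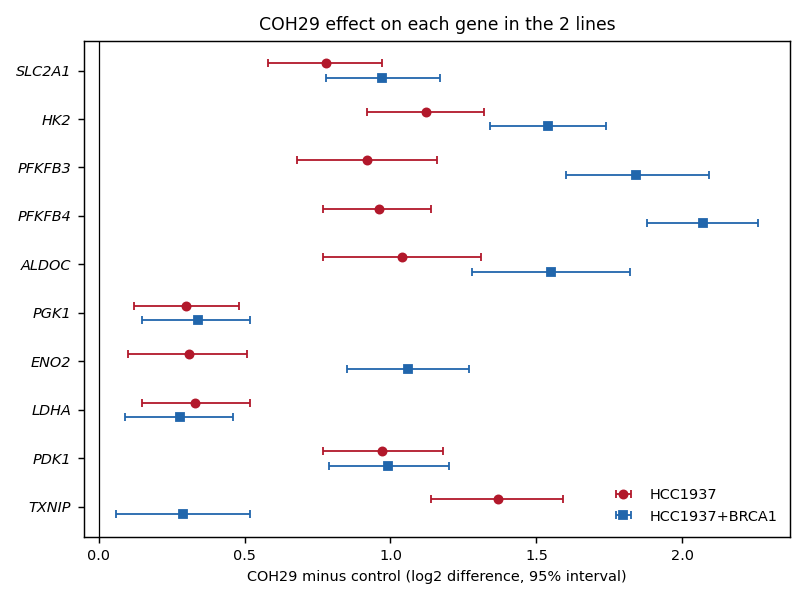
COH29 minus control (log2 difference, horizontal axis) for each of the 10 genes in HCC1937 (circles) and HCC1937+BRCA1 (squares); points are estimates from 2 arrays per group and bars are 95% intervals not adjusted for the number of genes. SLC2A1, ALDOC, PGK1, LDHA and PDK1 have overlapping intervals in the lines, HK2, PFKFB3, PFKFB4 and ENO2 lie farther right in HCC1937+BRCA1, and TXNIP lies farther right in HCC1937.

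Whether the COH29 response differed between the lines was tested as the effect in HCC1937 minus the effect in HCC1937+BRCA1. Of all genes, 0.956% were called in this comparison, 0.413% with a larger and 0.543% with a smaller value in HCC1937. These 176 genes became 41 to 67 when any 1 of the 8 arrays was left out. Of the 10 genes 4 were called, TXNIP with a larger and PFKFB3, PFKFB4 and ENO2 with a smaller effect in HCC1937. PFKFB4 differed by -1.11 ± 0.12 (limma adjusted p = 0.00587), and this call held without any 1 array (adjusted p 0.0227 to 0.0402). PFKFB3 differed by -0.92 ± 0.15 (adjusted p = 0.0318). Its call was lost without any 1 array other than HCC1937+BRCA1 COH29 replicate 1 (adjusted p 0.0725 to 0.134). ENO2 differed by -0.75 ± 0.13 (adjusted p = 0.0382), and its call was lost without any 1 of the 8 arrays (0.0734 to 0.148). TXNIP differed by 1.07 ± 0.14 (adjusted p = 0.0136). That call was lost without HCC1937 COH29 replicate 2 (0.0561), HCC1937 control replicate 1 (0.0631), HCC1937+BRCA1 COH29 replicate 1 (0.0524) or 2 (0.0685), or HCC1937+BRCA1 control replicate 2 (0.0542), with values from 0.98 to 1.17. When the variances were not moderated across genes, none of the 4 was called, at adjusted p between 0.106 and 0.205.

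The other 6 genes missed the threshold. HK2 differed by -0.42 ± 0.12 (limma adjusted p = 0.187), ALDOC by -0.51 ± 0.17 (0.238) and SLC2A1 by -0.20 ± 0.12 (0.565), each with the smaller effect in HCC1937. For PGK1 the difference was -0.04, with a 95% interval from -0.29 to 0.22, for LDHA 0.06, from -0.21 to 0.32, and for PDK1 -0.02, from -0.31 to 0.27.

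**Figure D3:**
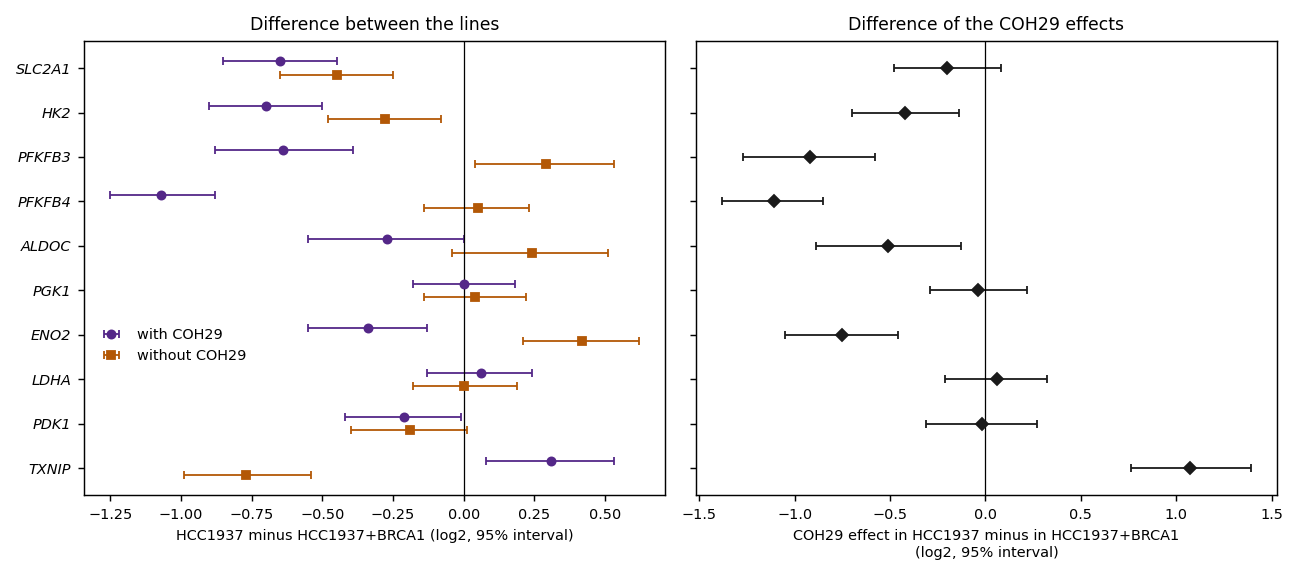
HCC1937 minus HCC1937+BRCA1 (log2 difference, left panel) with COH29 (circles) and without it (squares), and the COH29 effect in HCC1937 minus that in HCC1937+BRCA1 (log2, right panel), for each of the 10 genes; bars are 95% intervals not adjusted for the number of genes, from 2 arrays per group. PFKFB4 lies at -1.07 with COH29 and at 0.05 without it, ENO2 and PFKFB3 lie below zero with COH29 and above it without, and TXNIP the other way round.

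The lines themselves were compared with and without COH29. These comparisons and the COH29 effects share arrays, so they are not independent of each other. Without COH29, 31.2% of all genes were called, 14.8% higher and 16.4% lower in HCC1937 than in HCC1937+BRCA1. Of the 10 genes, ENO2 was higher and SLC2A1, HK2 and TXNIP were lower. ENO2 differed by 0.42 ± 0.09 (limma adjusted p = 0.00742), a call lost without HCC1937 control replicate 1 (0.07) or HCC1937+BRCA1 control replicate 2 (0.0545). TXNIP differed by -0.77 ± 0.10 (adjusted p = 0.000396), and SLC2A1 differed by -0.45 ± 0.09 (0.00384). HK2 differed by -0.28 ± 0.09 (0.038), and its call was lost without any 1 of the 4 control arrays (0.072 to 0.184) and without moderation (0.0527). PFKFB3 controls did not overlap, with a difference of 0.29 ± 0.11 (0.0754). PFKFB3 became called when dim genes were left out (0.043) and with cyclic loess (0.31, adjusted p 0.0473). A trended, robust prior (0.0139) and a fit of the 4 control arrays alone (0.047) also called it. In the other 13 of 17 alternatives it was not called, and the difference was 0.23 to 0.34 when 1 array was left out.

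With COH29, 31.6% of all genes were called, 17.4% higher and 14.2% lower in HCC1937 than in HCC1937+BRCA1. Of the 10 genes, TXNIP was higher and SLC2A1, HK2, PFKFB3, PFKFB4 and ENO2 were lower. PFKFB4 differed by -1.07 ± 0.08 (limma adjusted p = 2.08e-05), HK2 by -0.70 ± 0.09 (0.000331), SLC2A1 by -0.65 ± 0.09 (0.000494) and PFKFB3 by -0.64 ± 0.11 (0.00174). ENO2 differed by -0.34 ± 0.09 (0.02), a call lost without HCC1937 COH29 replicate 1 (0.0697) or 2 (0.0664) or HCC1937+BRCA1 COH29 replicate 2 (0.11). TXNIP differed by 0.31 ± 0.10 (0.0432), a call lost without any 1 of the COH29 arrays or of the HCC1937+BRCA1 controls (0.0511 to 0.195). It was also lost with the arrays shifted to one median (0.0681), with cyclic loess (0.085), without moderation (0.0996) and in a fit of the COH29 arrays alone (0.0646). ALDOC differed by -0.27 ± 0.12 (0.121) and was called without HCC1937 COH29 replicate 2 (-0.45, 0.0189). ENO2 and TXNIP thus stood on opposite sides of HCC1937+BRCA1 in the presence and in the absence of COH29. For PGK1, LDHA and PDK1, no difference between the lines was called with or without COH29 (limma adjusted p 0.112 to 0.995). As an exception, cyclic loess called PDK1 with COH29 (-0.27, 0.0329). The PDK1 arrays of the lines still did not overlap, at -0.19 ± 0.09 without COH29 and -0.21 ± 0.09 with it. LDHA arrays did not overlap with COH29, at 0.06 ± 0.08.

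The letters of the promoters are shown for PFKFB4, ENO2 and TXNIP, whose COH29 responses were called different between the lines. They are also shown for LDHA and PGK1, whose small responses did not pass that test. PFKFB3, which was called in that test too, is not shown. The sequences are RefSeq's (GRCh38.p14), 250 bases before an annotated start site, 5′ to 3′ on the strand of the gene. Capitals mark ACGTG and GCGTG on either strand, which are cores of hypoxia response elements, the E-box CACGTG, and in TXNIP a pair of CACGAG runs with the 5 bases between them. PFKFB4 is at chr3:48556804-48557053 (minus strand), ENO2 at chr12:6914330-6914579 (plus), TXNIP at chr1:145996580-145996829 (minus), LDHA at chr11:18394313-18394562 (plus) and PGK1 at chrX:78103998-78104247 (plus).
PFKFB4: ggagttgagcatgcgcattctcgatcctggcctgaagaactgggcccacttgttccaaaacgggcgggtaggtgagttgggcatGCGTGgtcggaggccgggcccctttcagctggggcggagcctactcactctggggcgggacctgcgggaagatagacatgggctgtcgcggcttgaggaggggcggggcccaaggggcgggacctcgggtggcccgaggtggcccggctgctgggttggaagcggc
ENO2: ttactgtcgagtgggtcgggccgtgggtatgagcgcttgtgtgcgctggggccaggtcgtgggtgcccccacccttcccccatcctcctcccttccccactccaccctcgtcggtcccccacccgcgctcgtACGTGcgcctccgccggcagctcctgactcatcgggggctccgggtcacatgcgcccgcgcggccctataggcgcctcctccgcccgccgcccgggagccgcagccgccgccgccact
TXNIP: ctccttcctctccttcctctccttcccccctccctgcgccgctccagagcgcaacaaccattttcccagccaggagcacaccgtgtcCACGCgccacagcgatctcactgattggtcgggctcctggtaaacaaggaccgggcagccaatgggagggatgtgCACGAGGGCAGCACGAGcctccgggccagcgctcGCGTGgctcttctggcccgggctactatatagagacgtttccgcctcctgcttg
LDHA: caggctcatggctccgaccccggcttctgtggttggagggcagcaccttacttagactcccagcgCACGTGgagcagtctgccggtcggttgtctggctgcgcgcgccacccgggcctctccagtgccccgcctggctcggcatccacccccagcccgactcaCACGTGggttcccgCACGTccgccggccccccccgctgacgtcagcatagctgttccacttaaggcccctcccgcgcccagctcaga
PGK1: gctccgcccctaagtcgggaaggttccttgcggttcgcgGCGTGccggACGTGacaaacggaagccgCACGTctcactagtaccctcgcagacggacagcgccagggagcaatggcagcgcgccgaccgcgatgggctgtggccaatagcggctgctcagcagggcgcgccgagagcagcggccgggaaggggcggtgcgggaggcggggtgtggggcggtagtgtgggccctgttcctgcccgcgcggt

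PFKFB4, the gene with the largest change in HCC1937+BRCA1, held 1 GCGTG, starting at -166 from the start site. ENO2 held 1 ACGTG at -118. LDHA, whose response was small in both lines, held the E-box CACGTG at -185 and -87 and the reverse of ACGTG at -73. The E-box also lay before start sites of HK2, PFKFB3 and ALDOC, whose responses were larger in both lines. PGK1 held GCGTG at -211 and ACGTG at -202, with the reverse of ACGTG at -183. TXNIP held GCGTG at -163 in reverse and at -54 forward, and between them, from -88 to -72, lay a pair of CACGAG runs set 5 bases apart. That is the layout of the carbohydrate response element known for human TXNIP, and it was added to the search after the sequences were seen. Another annotated start site of TXNIP, not shown, had ACGTG at -162 and no such pair. That of LDHA, also not shown, had GCGTG at -123 in reverse and no E-box.

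Over a window of 300 bases, which adds 50 bases after the start, 15 promoters of the 10 genes were searched on both strands. ACGTG was in 9 of the 15 and in 21.4% of 35116 RefSeq promoters, and GCGTG in 10 of the 15 and in 36.5% of all. At least 1 of them was in 14 of the 15 and in 48.4% of all. Both cores contain the pair CG, so their frequency depends on how many CG pairs a window holds. The 15 windows held from 4 (TXNIP) to 42 (PFKFB3) such pairs, and the PDK1 window without either core held 6. Promoters of like CG content were not compared. The E-box CACGTG, which contains ACGTG on both strands and so is counted in it, was in 4 of the 15, in HK2, PFKFB3, ALDOC and LDHA, and in 7.26% of all. The same pair was in 2 of all promoters (0.0057%), 1 of them that of TXNIP. TGATGNAA, the core of the C/EBP-ATF response element, was not in these 15 windows, and 3.62% of all promoters held it. A match of letters is not a bound site.

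For each gene, other isoforms of the same step were set beside it. The plot of related genes gives their values. Glucose transporter SLC2A3 changed by 0.28 ± 0.08 with COH29 in HCC1937 (limma adjusted p = 0.0369) and by 0.09 ± 0.08 in HCC1937+BRCA1 (0.424), and the call in HCC1937 was lost without any 1 of the HCC1937 arrays or of the HCC1937+BRCA1 controls (up to 0.178). Hexokinase HK1 had values of -0.21 ± 0.09 in HCC1937 (0.118) and -0.22 ± 0.09 in HCC1937+BRCA1 (0.0782), on the other side of zero from HK2. Among the PFKFB isoforms, PFKFB1 fell by 0.54 in HCC1937 (0.00521) and had -0.07 ± 0.10 in HCC1937+BRCA1 (0.62). PFKFB2 rose by 0.43 ± 0.10 in HCC1937 (0.0176) and had 0.13 ± 0.10 in HCC1937+BRCA1 (0.377). The PFKFB2 call was lost without HCC1937 COH29 replicate 2 or without either HCC1937 control (up to 0.112).

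The ubiquitous enzymes of the later steps gave smaller values than their listed relatives. ALDOA, the muscle and general aldolase, had 0.24 ± 0.08 in HCC1937 (limma adjusted p = 0.0559) and 0.15 ± 0.08 in HCC1937+BRCA1 (0.159). ENO1, the general enolase, had 0.15 ± 0.09 in HCC1937 (0.291) and -0.02 ± 0.09 in HCC1937+BRCA1 (0.879). LDHB, the B subunit of lactate dehydrogenase, had 0.06 ± 0.08 in HCC1937 (0.626) and -0.13 ± 0.08 in HCC1937+BRCA1 (0.231). Among the pyruvate dehydrogenase kinases PDK2 moved against PDK1. It fell by 0.45 in HCC1937 (0.00554) and by 0.64 in HCC1937+BRCA1 (0.000555). PDK3 and PDK4 had values between 0.13 and 0.27 in both lines, with adjusted p between 0.144 and 0.332. Of the alpha-arrestins, ARRDC3, which sorts membrane receptors for degradation, rose by 1.33 ± 0.08 in HCC1937 (3.1e-05) and by 0.76 ± 0.08 in HCC1937+BRCA1 (0.000185). Its effects differed by 0.56 ± 0.12 between the lines (0.0753), which missed the threshold. ARRDC4 rose by 0.40 ± 0.11 in HCC1937 (0.0325) and by 0.51 ± 0.11 in HCC1937+BRCA1 (0.0069). Neither ARRDC4 call held when each array was left out in turn. ARRDC2 had 0.13 ± 0.09 in HCC1937 (0.34) and rose by 0.45 ± 0.09 in HCC1937+BRCA1 (0.00475). The larger values of ARRDC4 and ARRDC2 were thus in HCC1937+BRCA1, with no called difference between the lines (0.829 and 0.339). The list of alpha-arrestins, thioredoxin genes and MondoA-ChREBP factors held 11 measured genes. In HCC1937 3 of them were called higher and 1 lower, and in HCC1937+BRCA1 4 higher and 2 lower, beside 22.7% and 33.6% of all genes called. The 1 was lost without any of HCC1937 COH29 replicate 1, COH29 replicate 2 and control replicate 1, while leaving out HCC1937+BRCA1 COH29 replicate 1, or either control there, cut the 2 to 1.

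**Figure D4:**
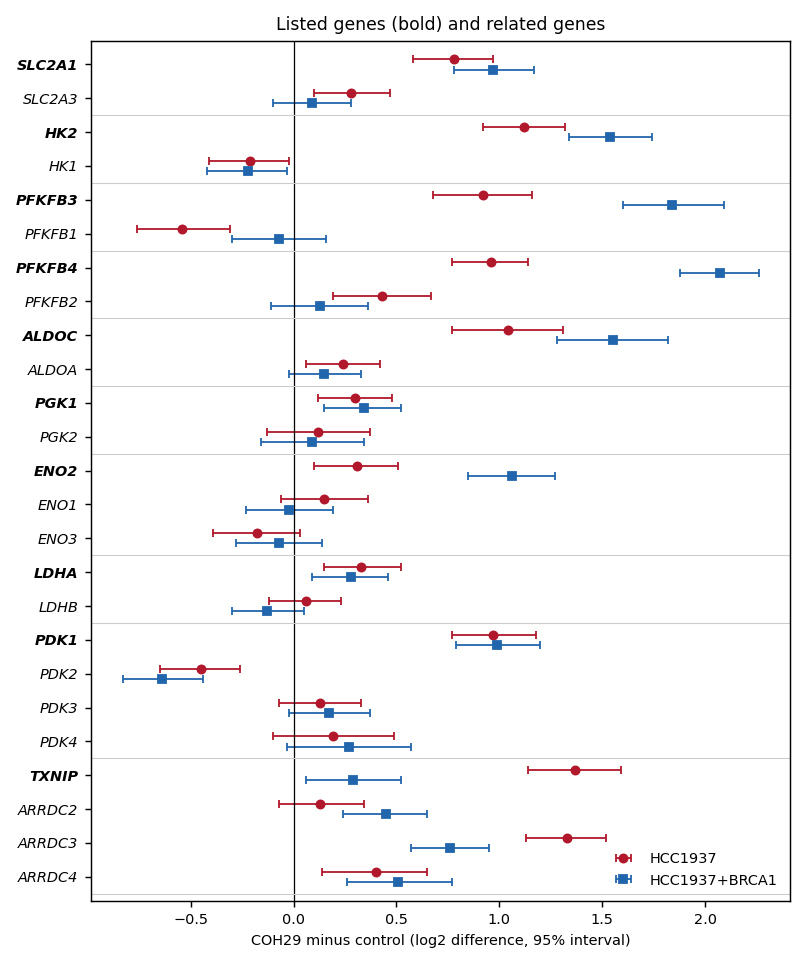
COH29 minus control (log2 difference, horizontal axis) in HCC1937 (circles) and HCC1937+BRCA1 (squares) for the 10 genes (bold) and for isoforms or relatives set under each; bars are 95% intervals not adjusted for the number of genes, from 2 arrays per group. HK1 and PDK2 lie left of zero under HK2 and PDK1, and ARRDC3 lies to the right in both lines as TXNIP does in HCC1937.

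The rest of the pathway was taken from lists of genes with set roles, also chosen with earlier results of these data known. The counts of every list stand beside the shares over all genes, 10.2% higher and 12.5% lower in HCC1937. In HCC1937+BRCA1 these shares were 13.6% higher and 20.1% lower. Of 23 other glycolytic enzymes measured, 1 was called higher in HCC1937, and 5 were called higher and 1 lower in HCC1937+BRCA1, with a median of 0.09 in each line. BPGM, which makes the red-cell effector 2,3-bisphosphoglycerate, rose by 0.34 ± 0.08 in HCC1937 (limma adjusted p = 0.0169) and by 0.41 ± 0.08 in HCC1937+BRCA1 (0.00497). PFKM, the muscle phosphofructokinase, had -0.31 ± 0.10 in HCC1937 (0.058) and fell by 0.38 in HCC1937+BRCA1 (0.0207). The call of BPGM in HCC1937 was lost without any 1 of its 4 arrays, and that of PFKM in HCC1937+BRCA1 without COH29 replicate 1 or either control. Leaving out HCC1937+BRCA1 COH29 replicate 1, or control replicate 2, cut the 5 to 2. Leaving out HCC1937+BRCA1 COH29 replicate 2, or control replicate 1, cut it to 1, and leaving out either HCC1937 control to 3. In HCC1937 PFKM became called lower once COH29 replicate 2 was left out (0.0422). The central enzymes GAPDH, TPI1 and PKM had values from 0.00 to 0.13 in both lines, with adjusted p from 0.246 to 0.972. They and ENO1 read near the top of the range of the arrays, GAPDH between 14.13 and 14.25 where the highest value was 14.65. Whether their probes were near saturation was not analysed here.

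Of 14 other glucose transporters, 3 were called higher and 1 lower in HCC1937, and 2 were called higher in HCC1937+BRCA1. SLC2A8, an intracellular hexose transporter, rose by 0.69 ± 0.12 in HCC1937 (limma adjusted p = 0.00325) and by 0.83 ± 0.12 in HCC1937+BRCA1 (0.000725), and SLC2A13, the proton myo-inositol transporter, by 0.40 ± 0.09 (0.0111) and 0.49 ± 0.09 (0.00265). The 3 became 1 without HCC1937 COH29 replicate 1 or without either HCC1937 control, and SLC2A13 was among those lost. Of 3 genes of fructose-2,6-bisphosphate control besides the PFKFB3 and PFKFB4 pair, PFKFB1 and PFKFB2 were called in HCC1937 as given above. These medians of 0.07 for the transporters and 0.09 for the enzymes compare with 0.04 over all genes.

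Pyruvate entry into mitochondria held 11 measured genes. COH29 gave 1 higher and 2 lower calls among them for HCC1937, with 2 higher and 5 lower calls for HCC1937+BRCA1. Besides PDK2, the pyruvate dehydrogenase subunit gene PDHB fell by 0.32 in HCC1937 (limma adjusted p = 0.0485) and by 0.45 in HCC1937+BRCA1 (0.00716). The PDHB call in HCC1937 was lost without any 1 array other than HCC1937 COH29 replicate 2 (up to 0.25), and that in HCC1937+BRCA1 without its COH29 replicate 1 or control replicate 1 (up to 0.0527). Leaving out those same arrays cut the 5 to 3. The 1 higher call of HCC1937 was lost without its COH29 replicate 2 or either control. The 2 higher calls of HCC1937+BRCA1 became 0 without its COH29 replicate 1 or either control, and 1 without its COH29 replicate 2. Of 4 genes of lactate export and pH, SLC16A7, a monocarboxylate transporter with high affinity for pyruvate, fell by 0.61 in HCC1937 (0.0013) and by 0.96 in HCC1937+BRCA1 (6.6e-05). SLC16A8, a lactate transporter of the retinal pigment epithelium, had 0.02 ± 0.10 in HCC1937 (0.9) and rose by 0.37 ± 0.10 in HCC1937+BRCA1 (0.0232), a call lost without either COH29 array of that line or its control replicate 1. SLC16A1, SLC16A3 and CA9 were not analysed here.

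In the pentose phosphate pathway 7 genes were measured. HCC1937 had 1 higher and 1 lower call with COH29, while HCC1937+BRCA1 had 1 higher and 3 lower calls. RPIA, which isomerises ribose-5-phosphate, had -0.32 ± 0.11 in HCC1937 (limma adjusted p = 0.0629) and fell by 0.78 in HCC1937+BRCA1 (0.000567). PGLS, the lactonase of the oxidative branch, fell by 0.37 in HCC1937 (0.0212) and by 0.33 in HCC1937+BRCA1 (0.0257), calls that each ended when that line lost either COH29 array or its control replicate 1. The higher call of HCC1937 was lost without its COH29 replicate 2 or either control, and that of HCC1937+BRCA1 without any 1 of its arrays. The 3 lower calls became 1 when HCC1937+BRCA1 COH29 replicate 2, or control replicate 1, was left out. Among 11 genes of glycogen, 4 were called higher in HCC1937 and 6 in HCC1937+BRCA1. PPP1R3C, a glycogen-targeting subunit of protein phosphatase 1, rose by 0.81 ± 0.10 in HCC1937 (0.000727) and by 1.38 ± 0.10 in HCC1937+BRCA1 (2.46e-05). GBE1, the glycogen branching enzyme, rose by 0.46 ± 0.10 in HCC1937 (0.00794), a call lost without HCC1937 control replicate 2 (0.0685), and by 1.07 ± 0.10 in HCC1937+BRCA1 (5.77e-05). Leaving out HCC1937 COH29 replicate 2, or its control replicate 1, cut the 4 to 2, and leaving out its control replicate 2 cut it to 1.

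Of 14 hypoxia-inducible genes outside glycolysis, 12 were called higher in HCC1937 and 13 in HCC1937+BRCA1, with medians of 1.10 in HCC1937 and 1.61 in HCC1937+BRCA1. NDRG1, a stress and differentiation gene, rose by 2.80 ± 0.09 in HCC1937 (limma adjusted p = 2.6e-06) and by 2.12 ± 0.09 in HCC1937+BRCA1 (1.68e-06). ANGPTL4, a secreted inhibitor of lipoprotein lipase, rose by 1.83 ± 0.10 in HCC1937 (1.7e-05) and by 3.02 ± 0.10 in HCC1937+BRCA1 (6.97e-07). KDM3A, a histone H3 demethylase, rose by 2.02 ± 0.08 in HCC1937 and by 2.01 ± 0.08 in HCC1937+BRCA1. The mitophagy receptor gene BNIP3 rose by 2.21 ± 0.09 in HCC1937 and by 1.74 ± 0.09 in HCC1937+BRCA1, and the collagen prolyl hydroxylase gene P4HA1 by 1.39 ± 0.08 in HCC1937 and 1.36 ± 0.08 in HCC1937+BRCA1. VEGFA, the angiogenic growth factor, rose by 1.29 ± 0.08 in HCC1937 and by 1.79 ± 0.08 in HCC1937+BRCA1, and EGLN3, a prolyl hydroxylase that marks HIF for degradation, by 0.90 ± 0.16 in HCC1937 and 1.49 ± 0.16 in HCC1937+BRCA1. ADM, which encodes the vasodilator adrenomedullin, rose by 1.06 ± 0.09 in HCC1937 and by 2.23 ± 0.09 in HCC1937+BRCA1, and ANKRD37 by 1.14 ± 0.19 in HCC1937 and 2.88 ± 0.19 in HCC1937+BRCA1. The difference between the lines was called for ANGPTL4 (-1.20 ± 0.14, adjusted p = 0.00785) and for ADM (-1.17 ± 0.13, 0.00785), without loss when any 1 array was left out. These run the same way as PFKFB3, PFKFB4 and ENO2. It was also called for ANKRD37 (-1.74 ± 0.26, 0.0232) and, the other way, for NDRG1 (0.68 ± 0.13, 0.0483). The ANKRD37 call was lost without any 1 array other than the HCC1937 controls (up to 0.105), and the NDRG1 call without any 1 of the 8 arrays (0.089 to 0.192).

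The listed HIF and MYC regulators changed less at the RNA level than those genes, with medians of 0.18 in HCC1937 and 0.09 in HCC1937+BRCA1. EGLN3, which also acts on HIF, was counted with the hypoxia-inducible genes and rose in both lines. Of 9 HIF and MYC regulators, 2 were called higher in HCC1937, while HCC1937+BRCA1 had 1 higher and 1 lower call. Over all genes, 22.7% were called in HCC1937 and 33.6% in HCC1937+BRCA1. Leaving out HCC1937 COH29 replicate 1 cut the 2 to 1 and leaving out its control replicate 2 cut it to 0, and without HCC1937+BRCA1 control replicate 2 the 1 higher call became 2. HIF1A, the oxygen-regulated subunit of HIF-1, had -0.07 ± 0.09 in HCC1937 (limma adjusted p = 0.623) and fell by 0.42 in HCC1937+BRCA1 (0.00754), a call lost when COH29 replicate 2 or control replicate 1 was left out there (up to 0.0645). EPAS1, its HIF-2 counterpart, rose by 0.41 ± 0.08 in HCC1937 (0.00639), a call lost without HCC1937 control replicate 2 (0.0587), and had 0.09 ± 0.08 in HCC1937+BRCA1 (0.417). MYC rose by 0.38 ± 0.09 in HCC1937 (0.012) and by 0.50 ± 0.09 in HCC1937+BRCA1 (0.00194), and HCC1937 lost the call without its COH29 replicate 1 or control replicate 2 (up to 0.0988). Protein levels were not measured.

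**Figure D5:**
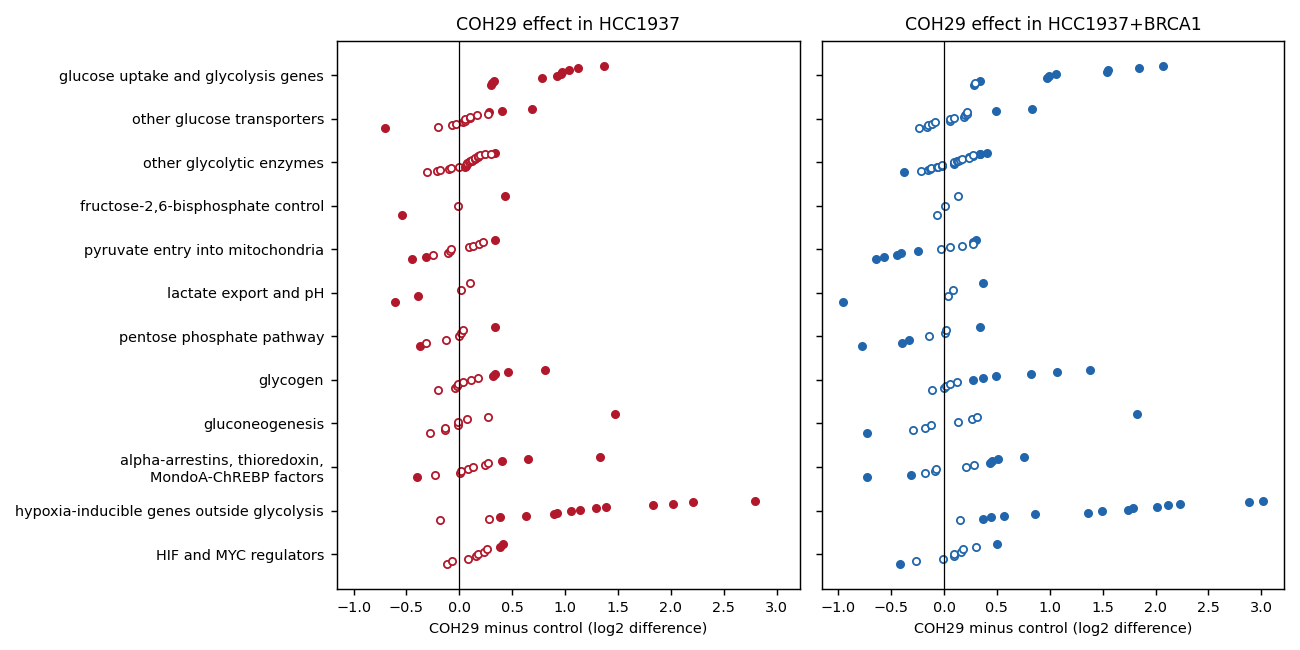
COH29 minus control (log2 difference, horizontal axis) of every measured gene of the 10 listed genes (top row) and of 11 other lists, in HCC1937 (left) and HCC1937+BRCA1 (right); each point is a gene from 2 arrays per group, filled where called at adjusted p under 0.05 and open where not. All of the top row lies right of zero, as do the hypoxia-inducible genes outside glycolysis except INSIG2 in HCC1937 (-0.18, adjusted p = 0.192), with medians of 0.94 and 1.10 in HCC1937 and 1.03 and 1.61 in HCC1937+BRCA1, while the glucose transporters and glycolytic enzymes lie around zero.

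Across the 8 arrays, genes with a pattern most like each of the 10 were found by Pearson's r, among 1909 genes with a standard deviation of at least 0.5. The 8 arrays form 4 groups, so these values mainly describe group means and are given with no p. For SLC2A1 the closest were CPEB4 (r = 0.994), NPL (0.994) and GAREM1 (0.993), and for HK2 TENT5C (0.998), RNF19B (0.997) and DNAJB9 (0.996). For PFKFB3 they were SESN2 (0.998), PELI1 (0.996) and MXD1 (0.995), and for PFKFB4 ANGPTL4 (0.992), FBXO33 (0.992) and CCN1 (0.991). ALDOC was closest to FZD7 (0.993), FAM53C (0.993) and ACER2 (0.992), and PGK1 to PNRC1 (0.994), BRD2 (0.993) and CRISPLD2 (0.992). ENO2 was closest to DUSP1 (0.989), ADM (0.975) and KLHL21 (0.968), and LDHA to COQ10A (0.989), BRD2 (0.983) and GSKIP (0.981). PDK1 was closest to WDR47 (0.998), CDKN1A (0.996) and NPC1 (0.996). TXNIP had the loosest neighbours of the 10, MAP1B (0.951), LMO4 (0.944) and LRRN1 (0.939).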

How the data were processed

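Total RNA isolated with TRIzol was biotin-labelled and hybridised to Affymetrix arrays, per the labels' protocols. The table deposited by the authors holds log2 intensities for 33297 probe sets, and RMA and Partek are named, without versions, in the submitters' processing notes. RMA corrects background, equalises the arrays' distributions and summarises probes on a log scale; once sorted, the arrays' values were within 0.297 of each other. The aligner, annotation release and genome build of the probe sets are not given in the sources used here. The deposited table was used unchanged.

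Of the probe sets, 19460 had 1 gene, 1754 several and 12083 none in the platform annotation. Those with several or none were left out, 19429 matched RefSeq (GRCh38.p14) by gene identifier with 0 symbols changed, and the probe set with the highest mean was kept for each gene, leaving 18417 genes. Each of the 10 genes had 1 such probe set. All 8 arrays entered a model of group means in limma 3.58.1 (R 4.3.3), and variances were moderated with eBayes (4 residual and 4.96 prior degrees of freedom). P-values were adjusted by Benjamini-Hochberg over all genes tested. The code was tested on simulated data. Python 3.11.15 with pandas 2.3.3 and matplotlib 3.10.9 made the tables and plots.

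The 10 genes, the lists and the tests were chosen with earlier results of these data known. All 10 genes are named; of each other list, genes called in both lines with a log2 change of at least 1 in either, and otherwise the 2 called genes with the largest mean change. Isoforms, HIF1A and the central enzymes are named beyond that rule, as relatives of the 10 genes. Within a group the arrays correlated at 0.996 to 0.9974. Alternatives were a filter on dim genes (mean under percentile 30), arrays shifted to one median, cyclic loess, a trended and robust variance prior, no moderation, the replicate number as a block, other choices of probe set, a fit of the 4 arrays compared, and each array left out in turn. Precision is limited by the number of arrays. Scan batches were not analysed here.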

Additional observations from a re-analysis of the deposited data

Results flagged for a closer look

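The COH29 effect differed between HCC1937 and HCC1937+BRCA1 for 4 of the 10 genes by limma's test of the difference itself, at an adjusted p under 0.05. The effect in HCC1937 minus that in HCC1937+BRCA1 was -1.11 for PFKFB4 (adjusted p = 0.00587), -0.92 for PFKFB3 (0.0318) and -0.75 for ENO2 (0.0382) on the log2 scale. For TXNIP it was 1.07 (0.0136), the opposite direction. The PFKFB4 call was the one of these 4 that held when each array was left out in turn.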

How the results depend on the processing

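No called direction was reversed in 840 values of the 10 genes recomputed under 17 alternatives, and 83 changed their side of the threshold (73 lost a call, 10 gained one). Many of these values could not reverse. The dim-gene filter, the variance settings, the block and the 4-array fits leave a log2 change as it was. Other choices of probe set do so too, since each gene had only 1, as does leaving out an array outside the comparison. Of 50 values, 33 kept their side under all alternatives. The number of the 10 genes called higher in HCC1937 than in HCC1937+BRCA1 without COH29 was 1, and it was 2 when dim genes were left out, with cyclic loess, with a trended, robust prior and in a fit of the 4 arrays compared, and 0 to 1 with an array left out. With COH29 it was 1, and 0 with the arrays shifted to one median, with cyclic loess, without moderation and with 4 arrays, and 0 to 1 with an array left out. The difference of effects was called larger in HCC1937 for 1 gene and smaller for 3, and for 0 and 0 without moderation, 0 to 1 and 1 to 2 with an array left out. Over all genes 176 differences of effects were called, against 3 without moderation, which uses 4 residual degrees of freedom, 566 with a trended, robust prior, 351 with dim genes left out and 41 to 67 with an array left out. A shift to one median turned the share of COH29 calls that were higher to 52.1% in HCC1937, against 44.8%, and to 54.4% in HCC1937+BRCA1, against 40.3%. The cause was not tested. With 2 arrays per group, small changes such as those of PGK1, LDHA and ENO2 in HCC1937 were near the limit of what could be called.

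Replicate numbers were not treated as pairs, since deviations of same-numbered arrays correlated between -0.204 and 0.26 over genes. With the replicate number as a block, 9 of the 10 genes were called higher with COH29 in HCC1937 and 9 in HCC1937+BRCA1; ENO2 in HCC1937 (0.0616), its difference of effects (0.0719) and HK2 between the controls (0.0502) lost their calls, and 106 differences of effects were called over all genes.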

Other observations

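Some relatives of the 10 genes separated the lines more than the 10 genes did, with or without COH29. Those named here were chosen after their values were seen. Relatives in general did not do so. The 23 other glycolytic enzymes ranged from -0.51 to 0.49 between the lines without COH29 and from -0.78 to 0.50 with it. ARRDC4, an alpha-arrestin related to TXNIP, read 5.64 and 5.64 with COH29 and 5.38 and 5.11 in the control of HCC1937, against 8.82 and 9.03 with COH29 and 8.39 and 8.43 in the control of HCC1937+BRCA1. HCC1937 minus HCC1937+BRCA1 was -3.17 ± 0.11 without COH29 (SE, n = 2 arrays per group, limma adjusted p = 1.56e-07) and -3.28 ± 0.11 with it (1.37e-07). PYGL, the liver glycogen phosphorylase, differed by -2.86 ± 0.09 without COH29 and -2.93 ± 0.09 with it. CA12, a membrane carbonic anhydrase, was higher in HCC1937 by 2.29 ± 0.09 without COH29 and 1.87 ± 0.09 with it, and FBP1, the gluconeogenic fructose bisphosphatase, by 1.79 ± 0.11 and 2.23 ± 0.11.

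PCK2, the mitochondrial phosphoenolpyruvate carboxykinase of gluconeogenesis, had one of the larger COH29 responses outside the hypoxia-inducible genes. It read 11.10 and 11.14 with COH29, against 9.62 and 9.69 in the control of HCC1937, and 11.14 and 11.21 with COH29, against 9.31 and 9.40 in the control of HCC1937+BRCA1. The rise was 1.47 ± 0.08 in HCC1937 (limma adjusted p = 1.98e-05) and 1.82 ± 0.08 in HCC1937+BRCA1 (2.65e-06). It was the 1 gene of 8 in gluconeogenesis called higher in each line, beside 10.2% of all genes in HCC1937 and 13.6% in HCC1937+BRCA1. Of the 8, 1 was called lower in HCC1937+BRCA1 and 0 in HCC1937, beside 20.1% and 12.5% of all genes. FBP1, of the same list, averaged 9.43 with COH29 in HCC1937+BRCA1, against 10.16 in the control.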
